A study of Mus musculus with 21 samples.

Results

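A set of 6 genes of the mouse Ly6 surface antigen family were followed across repeated lung inflammation, carcinogen-induced lung tumours and tumours from mice fed chemopreventive diets. They were the rows of the count table with the symbols Ly6a, Ly6e, Ly6c1, Ly6c2, Ly6i and Ly6d, 6 of 38924 symbols, and all 6 passed the filter on low counts that left 15770 genes for testing. The members were selected on results of these same libraries, and which measured values entered that choice is not recorded. The values below are therefore a description, and the adjusted p-values place each member within a fit of the whole table and are not independent support for the choice.

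RNA came from female A/J mice, 22 weeks after treatment. Control mice received the vehicle. NNK mice received a single dose of 100 mg/kg of NNK, a tobacco-specific nitrosamine that causes lung tumours, by intraperitoneal injection. LPS mice received the vehicle and weekly intranasal lipopolysaccharide, an outer membrane component of Gram-negative bacteria, at 5 µg per mouse. NNK_LPS mice received both, with LPS beginning after NNK, and the last 3 groups received both and a diet with 20 µmol/g silibinin, a milk thistle flavonolignan (NNK_LPS_Sil), with 20 µmol/g indole-3-carbinol, from cruciferous vegetables (NNK_LPS_I3C), or with both compounds (NNK_LPS_Sil_I3C). Each of the 7 groups had 3 libraries. Dissected tumours, pooled over 3 mice in a group, gave the RNA wherever NNK was used, whereas Control and LPS RNA was from normal lung. The effect of NNK and that of sampling tumour tissue therefore cannot be told apart. Whether the libraries within a group are separate mice is not stated in the labels, so p-values measure the spread between libraries, which may be technical.

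Ly6 proteins are small, cysteine-rich proteins, held at the outer cell surface by a glycolipid anchor, with the fold also found in the urokinase receptor. Many are used as surface markers of blood cell lineages, and several are known to be induced by interferons. Ly6a encodes Sca-1, a marker of mouse blood stem cells that is also present on activated lymphocytes and on endothelium. Ly6c1 and Ly6c2 encode the Ly6C antigen, which marks inflammatory monocytes and is also found on endothelial cells, plasma cells and memory T cells.

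The 6 genes lie within 349.9 kb of mouse chromosome 15 in GENCODE's annotation of GRCm38, the mm10 build named for the files. Ly6d is at chr15:74762056-74763620, Ly6i at chr15:74979534-74983430, Ly6a at chr15:74994877-74998031, Ly6c1 at chr15:75044018-75048830 and Ly6c2 at chr15:75108158-75111970, all on the minus strand. Ly6e, at chr15:74955051-74959905, is on the plus strand. The values are counts over each whole gene and were not split into exons or untranslated regions.

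Ly6c1 and Ly6c2 are a near-identical pair whose levels in these libraries did not run in parallel, so the DNA before their starts is shown. RefSeq promoters (GRCm38.p6) were matched for 2 of the 6 members, these 2. The stretches below are the part of the 250 bases before each annotated start that aligned between the pair. They are chr15:75048838-75049056 for Ly6c1 and chr15:75111997-75112221 for Ly6c2, both on the minus strand and written 5′ to 3′. Capitals mark bases that differ from the partner or have no partner base in the alignment.
Ly6c1: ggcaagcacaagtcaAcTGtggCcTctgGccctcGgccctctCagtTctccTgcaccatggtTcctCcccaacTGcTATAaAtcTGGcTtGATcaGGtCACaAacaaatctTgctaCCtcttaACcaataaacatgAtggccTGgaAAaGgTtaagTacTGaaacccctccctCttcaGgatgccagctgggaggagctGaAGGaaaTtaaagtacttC
Ly6c2: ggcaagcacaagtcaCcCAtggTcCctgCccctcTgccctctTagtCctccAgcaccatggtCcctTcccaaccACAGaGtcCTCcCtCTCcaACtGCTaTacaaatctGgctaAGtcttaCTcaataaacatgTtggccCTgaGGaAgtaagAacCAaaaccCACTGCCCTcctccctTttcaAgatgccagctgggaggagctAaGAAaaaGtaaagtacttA
Of 216 bases aligned without a gap, 164 were identical (75.9%), against 97.6% over 822 aligned bases of the transcripts. The window from 250 bases before to 50 after the start was searched on both strands for GAAANNGAA (an interferon-stimulated response element core), TATAAA and CCAAT. Neither promoter held GAAANNGAA, which stood in 8.56% of 32851 RefSeq promoter windows of 300 bases. Ly6c1 held 1 TATAAA, found in 13.6% of windows, and 1 CCAAT, found in 37.4%, and Ly6c2 held neither. A match is a run of letters and not a measured binding site.

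How reads were assigned to such similar genes is not given in the sources used here. Of the 50-base words in the annotated transcripts, 32.8% for Ly6c1 and 31.2% for Ly6c2 also occurred in a transcript of another gene, and 30.8% of those of Ly6c2 occurred in Ly6c1. The share was 19% for Ly6a and 4.76% for Ly6i, and no such word of Ly6e or Ly6d was shared. Values of Ly6c1 and Ly6c2, and to a lesser degree Ly6a, are uncertain to that extent. The build is the C57BL/6J genome, whereas the mice were A/J.

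Library depth was 13.3 to 25.3 M counts. The libraries fell into 3 sets that the labels do not name, according to how many mt-Atp8 counts they held for each mt-Atp6 count. Set A (0.0206 to 0.0236) held Control, NNK and LPS 1 and 2, set B (0.0782 to 0.0876) held LPS 3, NNK_LPS, NNK_LPS_Sil and NNK_LPS_I3C 1, and set C (0.117 to 0.135) held the other 5 libraries. NNK and NNK_LPS therefore shared no set, and neither did NNK_LPS and NNK_LPS_Sil_I3C. Summed alveolar type 2 markers ran from 23055 to 72914 counts per 1 M (CPM, using TMM-adjusted library sizes) over all libraries. Whole tissue was sequenced, so throughout, fewer cells of a type and less RNA per cell cannot be told apart.

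LPS against Control asks how repeated LPS alters normal lung. Of the 6 members, 5 were higher in LPS by edgeR's quasi-likelihood test at an adjusted p under 0.05. These were Ly6i (fold 147), Ly6c2 (6.5), Ly6a (3.45), Ly6e (3.17) and Ly6c1 (1.44). The background was broad, since 50.0% of all genes tested were called in either direction and 25.3% were called higher. The median log2 fold change was 1.73 over the 6 members and -0.02 over all genes tested.

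Ly6a stood at 410.1, 448 and 434 CPM in Control 1 to 3 and at 1415, 1229.5 and 1816 CPM in LPS. Every LPS library lay above every Control library, and LPS 3 was the highest. The log2 fold change was 1.79 ± 0.21 (standard error, n = 3 per group, edgeR adjusted p = 2.58e-06).

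Ly6e encodes an interferon-inducible member that restricts the entry of coronaviruses. Its level was 272, 302 and 373 CPM in Control and 937, 972 and 1095 CPM in LPS. The groups did not overlap, and the 3 LPS libraries lay close together. The log2 fold change was 1.67 ± 0.16 (n = 3 per group, edgeR adjusted p = 4.1e-07).

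The Ly6C pair had unequal changes. Ly6c1 read 379.9, 329.7 and 336 CPM in Control and 497, 476 and 534 CPM in LPS, a log2 fold change of 0.53 ± 0.16 (n = 3 per group, edgeR adjusted p = 0.0108). Ly6c2 read 16.8, 15.7 and 21.0 CPM in Control and 118, 116 and 114 CPM in LPS, a log2 fold change of 2.70 ± 0.18 (n = 3 per group, edgeR adjusted p = 1.14e-08). Neither gene overlapped between the groups. Ly6c2 had the smallest relative spread of any member within LPS, at 116 ± 2.05 CPM (SD, n = 3), and ranked 38 of 15770 genes by p in this comparison.

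Ly6i is expressed in macrophages and other myeloid cells. It was barely detected in Control, with 8, 13 and 10 counts, and had 1230, 1240 and 2043 counts in LPS. That was 0.694 ± 0.119 CPM against 103 ± 29.6 CPM (SD, n = 3), with no overlap. The log2 fold change was 7.20 ± 1.33 (n = 3 per group, edgeR adjusted p = 0.000327). With the spread taken from these 2 groups alone, its standard error was 0.31 and the fold change the same. Other groups of the 7-group fit had large differences in Ly6i between libraries, given below.

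Ly6d, known from stratified epithelium and from the earliest B-lineage cells, did not pass the test. It read 1.37, 2.43 and 3.74 CPM in Control and 6.67, 5.33 and 4.44 CPM in LPS, and the groups did not overlap. The log2 fold change was 1.11 ± 0.53, with a 95% interval of -0.01 to 2.23 (n = 3 per group, edgeR adjusted p = 0.0934). It passed when the fit was limited to the compared groups (adjusted p = 0.0178) and to libraries of set A (adjusted p = 0.0163).

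**Figure D1:**
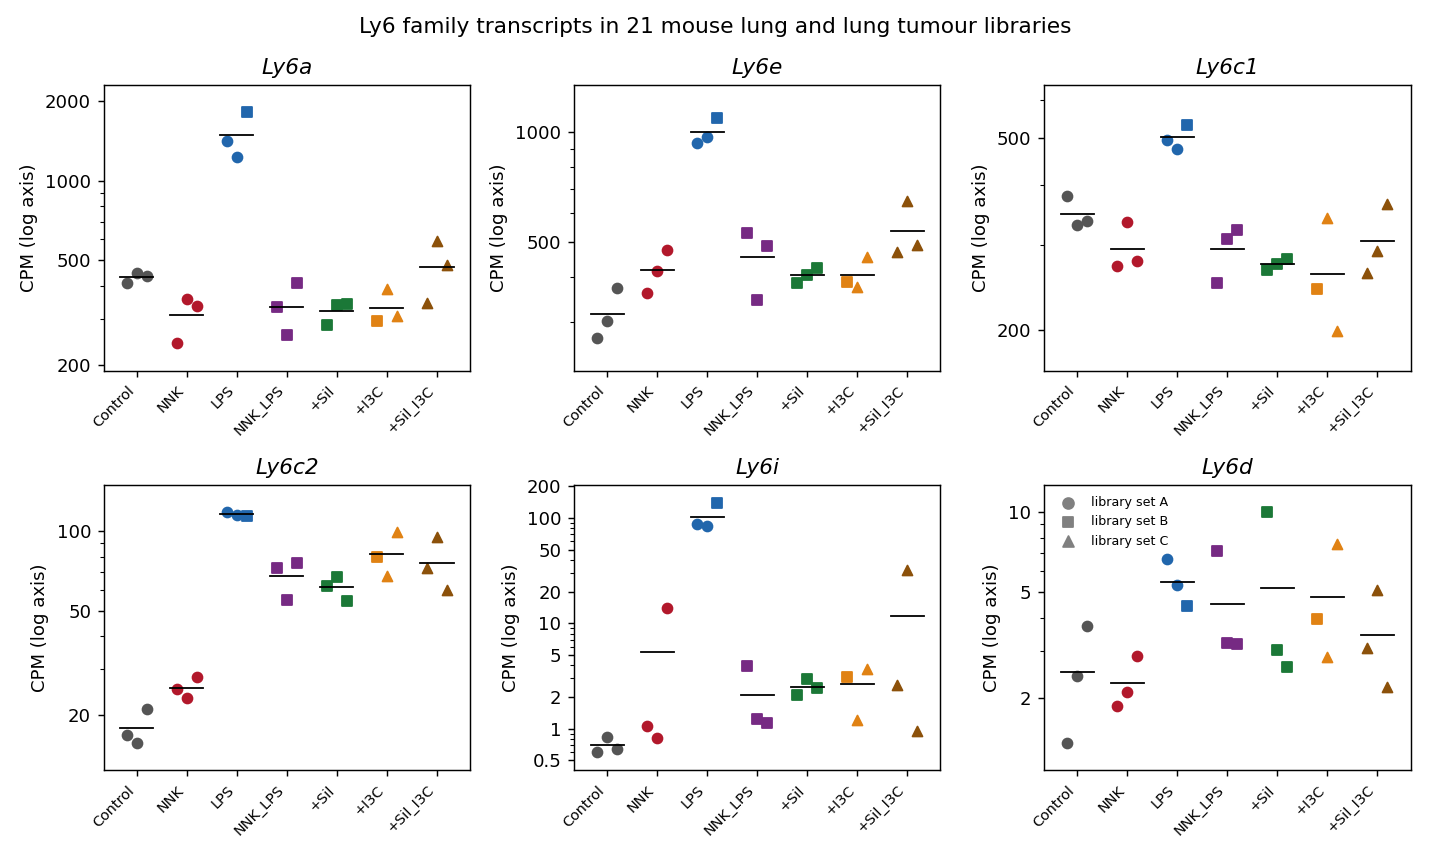
CPM of each Ly6 member in 21 libraries, with a log axis and its own range in each panel. Points are libraries, symbols mark the library set, bars are group means (n = 3) and +Sil, +I3C and +Sil_I3C are the NNK_LPS groups on those diets. The LPS libraries are the 3 highest for Ly6a, Ly6e, Ly6c1, Ly6c2 and Ly6i, and NNK 3 (14.0 CPM) and NNK_LPS_Sil_I3C 2 (32.0 CPM) stand apart for Ly6i.

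Levels can be set between genes only per length, here CPM per kilobase of annotated exon. In Control the order was Ly6a (429 ± 18.9, SD, n = 3), Ly6c1 (225 ± 17.6), Ly6e (128 ± 20.9), Ly6c2 (20.6 ± 3.24), Ly6d (3.38 ± 1.6) and Ly6i (0.600 ± 0.103). In LPS, Ly6a remained first at 1481 ± 299 per kilobase. Ly6e (407 ± 33.7) then lay above Ly6c1 (325 ± 19.1), Ly6c2 reached 134 ± 2.36, and Ly6i reached 89.5 ± 25.6, from the last place to above Ly6d (7.36 ± 1.5).

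Markers of several cell types moved with these values between Control and LPS. Monocyte markers were higher for 9 of 12 genes, with a summed level of 829 to 1131 CPM in Control and 1729 to 2045 CPM in LPS. Plasma cell markers were higher for 8 of 9 (706 to 714 against 2084 to 3156 CPM), T cell markers for 11 of 12 (65.2 to 98.6 against 264 to 311 CPM) and neutrophil markers for 6 of 10 tested (75.6 to 141 against 1025 to 1264 CPM). B cell markers were higher for 2 of 9 (46.9 to 245 against 215 to 303 CPM). Most of the plasma cell sum's difference was Igj, the antibody J chain, at 39.0 ± 13.8 CPM in Control and 1610 ± 456 CPM in LPS (SD, n = 3). Alveolar type 1 markers were lower for 6 of 7 and heart muscle markers for 7 of 7 (490.3 to 526 against 88.4 to 131 CPM). The part of any of these in the Ly6 values was not tested.

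Endothelial markers went the other way from Ly6c1. Of 17, 15 were lower in LPS and none higher, with a summed level of 6485 to 6798 CPM in Control and 2960.2 to 3373 CPM in LPS, whereas Ly6c1 rose. Gpihbp1, the Ly6-related protein that holds lipoprotein lipase on capillary endothelium, fell by 1.35 on the log2 scale (SE 0.28, n = 3 per group, edgeR adjusted p = 0.000811). Ly6c1 and this endothelial relative therefore had opposite signs in the same libraries.

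Interferon-response genes were higher in LPS together with the Ly6 members. All 17 of 17 type I interferon-stimulated genes were called higher, with a median log2 fold change of 2.51. Of 19 interferon-gamma response genes, 18 were called higher, with a median of 3.47. Examples were Bst2, which tethers budding virus particles (log2 fold change 2.37 ± 0.16, n = 3 per group, edgeR adjusted p = 1.23e-08), and Gbp2, a guanylate-binding protein active against intracellular microbes (3.77 ± 0.38, adjusted p = 8.18e-07). These lists were chosen with results of these libraries known.

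Calls in the wider Ly6 and urokinase receptor family went in both directions. Of 32 further family genes in the table, 17 could be tested, with 4 called higher, 3 called lower and a median log2 fold change of -0.29. Over all genes tested, 3993 of 15770 were called higher and 3897 lower, with a median of -0.02. The family's counts were thus not above the general share. Those higher were Plaur, the urokinase receptor, Ly6g, the neutrophil antigen, Ly6k and Ly6g5b. Ly6g had 0 counts in Control and 31 in LPS, so it remained close to detection. It passed the low-count filter only through LPS 1, LPS 3 and NNK 1 (1.00, 0.741 and 0.669 CPM). Its call is therefore not independent of that filter. Those lower were Gpihbp1, Lypd2 and Cd59a, an inhibitor of complement lysis.

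NNK against Control compares tumours with normal lung. No member was called, where 13.1% of all genes tested were, and the members' median log2 fold change was 0.13 against -0.02 for all genes. The 2064 genes behind that share became 404 without Control 2, 492 without NNK 1, 790 without Control 1 and 1064 without NNK 3. Of the members, 3 had an unadjusted edgeR p under 0.05, as did 4753 of the 15770 genes tested. Ly6c2 stood at 25.2, 23.2 and 27.9 CPM in NNK, all above Control, with a log2 difference of 0.51 ± 0.18 (n = 3 per group, edgeR adjusted p = 0.0661). Ly6a stood at 243, 355 and 334 CPM, all below Control, with a difference of -0.47 ± 0.20 (adjusted p = 0.126). Ly6e, at 360.2, 416 and 475 CPM, overlapped Control and differed by 0.40 ± 0.16 (adjusted p = 0.1).

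Calls for these 3 members changed between fits. With 1 library left out, the log2 difference ran from -0.56 to -0.31 for Ly6a (adjusted p 0.124 to 0.419), from 0.31 to 0.56 for Ly6e (0.0461 to 0.263) and from 0.45 to 0.66 for Ly6c2 (0.0412 to 0.195), Ly6a being closest to Control without NNK 1. Both groups lie within set A, and a fit to that set alone called Ly6c2 (log2 0.53, adjusted p = 0.0158), Ly6a (-0.45, adjusted p = 0.0405) and Ly6e (0.42, adjusted p = 0.0472). That fit called 2821 of 15473 genes, against 2064 of 15770 in the main fit. Without Control 3, Ly6e (0.56, adjusted p = 0.0461) and Ly6c2 (0.66, adjusted p = 0.0412) were called, where 1840 of 15935 genes were. Ly6c1, at 272, 335 and 278 CPM in NNK, differed by -0.24 with a 95% interval of -0.58 to 0.10, and Ly6d by -0.14 with an interval of -1.32 to 1.04.

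Markers of other cell types moved with these differences. Alveolar type 2 markers were higher in NNK for 7 of 10 (32619 to 39030 CPM summed in Control and 46999 to 56349 CPM in NNK) and neutrophil markers for 7 of 10 tested (75.6 to 141 against 132 to 683 CPM). Fibroblast markers were lower for 5 of 9 (1763 to 2117 against 1233 to 1402 CPM) and heart muscle markers for 6 of 7 (490.3 to 526 against 114 to 247 CPM). Summed monocyte markers were 829 to 1131 CPM in Control and 1417 to 1508 CPM in NNK, with 1 of 12 called higher. Most of that sum was Fn1 (432 ± 77.9 and 682 ± 35.1 CPM) and Chi3l3 (159 ± 54.4 and 390 ± 35.4 CPM, SD, n = 3). Plasma cell markers (706 to 714 against 851 to 1053 CPM) had 1 of 9 called higher, Igj. Endothelial markers (6485 to 6798 against 4983 to 5948 CPM) had 1 of 17 called lower. No B or T cell marker was called. The part of all these in the Ly6a, Ly6c2 and Ly6e values was not tested.

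Ly6i in NNK rested on 1 library. Its counts were 16, 12 and 213 in NNK 1 to 3, that is 1.07, 0.820 and 14.0 CPM. NNK 1 and 2 lay near Control and NNK 3 far above. The log2 difference from Control was 2.92 ± 1.38 (n = 3 per group, edgeR adjusted p = 0.166), and the values with 1 library left out ran from 0.45 to 3.44. NNK 3 also had the highest summed interferon-gamma response level of its group (1628 CPM against 816 and 1161 CPM), and whether they are linked was not tested.

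NNK_LPS against LPS compares tumours with normal lung when both were exposed to LPS. Of the members, 5 were lower in the tumours, again all but Ly6d, where 38.2% of all genes tested were called and 20.9% were called lower. The members' median log2 fold change was -0.96. This comparison shares its LPS libraries with that of LPS against Control.

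Ly6a read 331, 259.9 and 409 CPM in NNK_LPS, below every LPS library, and fell by 2.16 on the log2 scale (SE 0.21, n = 3 per group, edgeR adjusted p = 9.97e-07). Ly6i had 62, 19 and 20 counts, or 3.90, 1.25 and 1.14 CPM, and fell by 5.63 (SE 1.16, adjusted p = 0.00128). Both genes were thus far below LPS, and Ly6a overlapped neither LPS nor Control, whose lowest library was 410.1 CPM.

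Ly6e read 529, 345 and 487 CPM in NNK_LPS and fell by 1.14 (SE 0.16, n = 3 per group, edgeR adjusted p = 3.43e-05). Ly6c1 read 251, 309.7 and 323 CPM and fell by 0.77 (SE 0.16, adjusted p = 0.00109). Ly6c2 read 72.4, 55.0 and 75.6 CPM and fell by 0.78 (SE 0.17, adjusted p = 0.00144). All 3 lay below every LPS library, but Ly6c2 stayed well above the highest Control library, 21.0 CPM.

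Set B holds LPS 3 alone from its group, so a fit within it assumes that this library varies like the others. Ly6c2 had a log2 difference of -0.74 there. Ly6d read 7.11, 3.21 and 3.19 CPM in NNK_LPS, with an interval of -1.36 to 0.80 for its log2 difference from LPS.

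Interferon lists were lower in NNK_LPS than in LPS for 17 of 17 type I genes (summed level 474 to 716 against 2729.7 to 3645 CPM) and 18 of 19 interferon-gamma genes (1129 to 1672 against 8059 to 10906 CPM). Monocyte markers were lower for 9 of 12 and higher for 1, neutrophil markers lower for 6 of 10 tested, T cell markers lower for 5 of 12 and plasma cell markers lower for 2 of 9. Alveolar type 2 markers were higher for 8 of 10, at 52932 to 72403 CPM summed in NNK_LPS and 23055 to 26342 CPM in LPS. The part of these in the lower Ly6 values was not tested. Summed plasma cell markers overlapped between the groups, at 1505.5 to 2484 CPM in NNK_LPS and 2084 to 3156 CPM in LPS, and their part in the Ly6c2 level was not tested.

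NNK_LPS against NNK asks what repeated LPS adds in tumours. Ly6c2 was the 1 member called, and it ranked 1 of 15770 genes by p. Only 15 genes, 0.0951% of those tested, were called in either direction, and 0.0634% were called higher. That count was 0 to 2 without any 1 of the NNK libraries or NNK_LPS 2, 8 without NNK_LPS 1 and 223 without NNK_LPS 3. The 3 NNK libraries held 23.2 to 27.9 CPM of Ly6c2 and the 3 NNK_LPS libraries 55.0 to 75.6 CPM, without overlap. The log2 fold change was 1.41 ± 0.17, a fold of 2.66 (n = 3 per group, edgeR adjusted p = 0.00417).

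The size of this Ly6c2 difference was stable where its call was not. Leaving out 1 library at a time gave log2 values from 1.34 to 1.54, with an adjusted p of 0.0761 without NNK 2. The compared groups come from different library sets, and no set holds both. A term for the set gave 1.45 ± 0.33 and an adjusted p of 0.516. Between sets A and B that term rests on LPS, the 1 group with libraries of both, where LPS 3 alone is of set B. In LPS, Ly6c2 stood at 118 and 116 CPM in set A and 114 CPM in set B.

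No other member was called between NNK_LPS and NNK. The log2 difference was 0.10 for Ly6a (95% interval -0.32 to 0.52), 0.12 for Ly6e (-0.22 to 0.46) and 0.00 for Ly6c1 (-0.34 to 0.34). Ly6i differed by -1.35 (-3.79 to 1.09), and without 1 library its value ran from -2.14 to 1.14. Ly6d differed by 0.97 (-0.17 to 2.11) and did not overlap between the groups.

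Beside the Ly6c2 difference, summed plasma cell markers were 851 to 1053 CPM in NNK and 1505.5 to 2484 CPM in NNK_LPS, although none of the 9 was called. That sum was carried by Igj, at 219 ± 87.4 CPM in NNK and 1151 ± 442 CPM in NNK_LPS (SD, n = 3), while Sdc1 (465 ± 35.4 and 517 ± 60.6 CPM) and Xbp1 (227 ± 36.4 and 275 ± 33.5 CPM) made up most of the rest. Summed monocyte markers overlapped, at 1417 to 1508 and 1405 to 1599.5 CPM, and none of 12 was called. Most of the monocyte sum was Fn1 (682 ± 35.1 and 565 ± 9.51 CPM) and Chi3l3 (390 ± 35.4 and 579 ± 120 CPM), which differed in opposite directions. None of the 17 type I or 19 interferon-gamma response genes was called. The part of plasma cells or monocytes in the Ly6c2 difference was not tested.

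The LPS difference in tumours minus that in normal lung was lower for Ly6a, Ly6e, Ly6c2 and Ly6i, 4 of 6 members, where 25.1% of all genes were called in either direction and 14.4% were called lower. The log2 values were -1.69 ± 0.29 for Ly6a (edgeR adjusted p = 0.000431), -1.54 ± 0.23 for Ly6e (0.000121), -1.29 ± 0.24 for Ly6c2 (0.00103) and -8.55 ± 1.74 for Ly6i (0.00214), with n = 3 in each of 4 groups. Ly6c1 (-0.53 ± 0.22, adjusted p = 0.095) and Ly6d (-0.14 ± 0.76, adjusted p = 0.911) were not called. Ly6c2 thus differed between NNK_LPS and NNK while its LPS difference was smaller there than in lung. For Ly6i, leaving out 1 library gave values from -9.34 to -6.06. All 17 type I and 18 of 19 interferon-gamma response genes were called lower in this interaction. So were 8 of 10 neutrophil markers tested, 7 of 12 monocyte, 2 of 9 plasma cell and 2 of 12 T cell markers. None of these lists had a gene called higher. Endothelial markers were higher for 3 of 17, and alveolar type 1 markers were higher for 4 of 7 and lower for 1. The part of any of these in the Ly6 values was not tested.

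**Figure D2:**
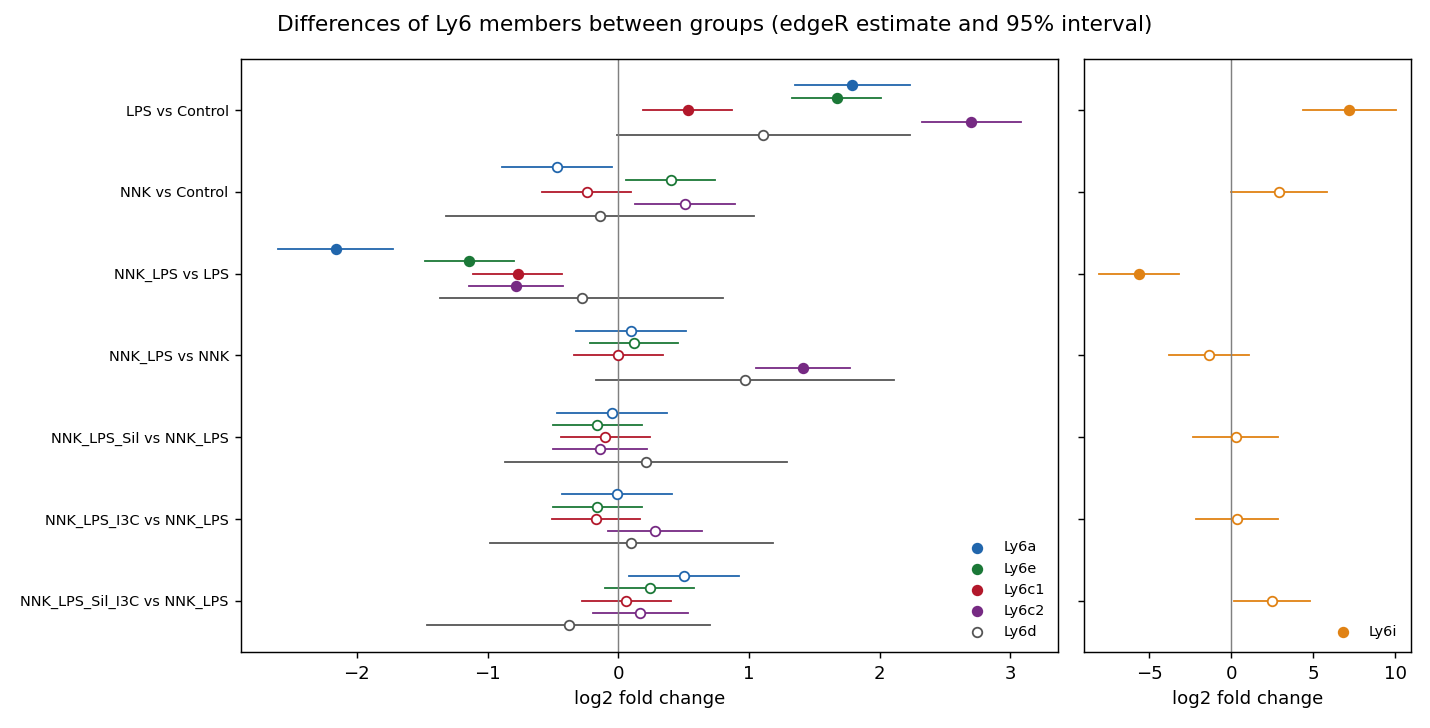
Log2 fold change of each Ly6 member in 7 comparisons of groups (n = 3 each), with lines for the 95% interval of the edgeR fit. Filled points were called at an adjusted p under 0.05, and Ly6i has its own axis. Ly6c2 is the 1 filled point for NNK_LPS against NNK (1.41), and no point is filled for the 3 diets.

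The share of Ly6c2 among counts of Ly6c1 and Ly6c2 together sets the pair against each other within a library, without scaling between libraries. It was 4.24%, 4.55% and 5.89% in Control and 8.48%, 6.47% and 9.13% in NNK. In LPS it was 19.3%, 19.6% and 17.6%, and in NNK_LPS 22.4%, 15.1% and 19.0%. NNK_LPS overlapped LPS, and both lay above every NNK library, so the share in LPS-treated tumours was like that in LPS-treated lung although both genes were lower.

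The diet groups had shares of 18.3% ± 1.80 (NNK_LPS_Sil), 24.9% ± 8.41 (NNK_LPS_I3C) and 20.2% ± 5.44 (NNK_LPS_Sil_I3C; SD, n = 3 each), all overlapping NNK_LPS. The highest library was NNK_LPS_I3C 3 at 33.3%, with a Wilson 95% interval of 32.3% to 34.4% that covers counting error only. In that library Ly6c2 was 99.6 CPM, the highest outside LPS, and Ly6c1 was 199 CPM, the lowest of the 21. Reads of the pair that could be assigned to either gene would move this share.

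Summing the pair to 1 row takes out how counted reads were divided within it, but not reads left uncounted or shared with other genes. LPS was then above Control by 0.76 ± 0.12 on the log2 scale (n = 3 per group, edgeR adjusted p = 4.41e-05). NNK_LPS differed from NNK in the summed row by 0.18 ± 0.12 (adjusted p = 0.474). The sum is mostly Ly6c1, which did not differ between those groups, so the Ly6c2 difference there rests on reads assigned to Ly6c2 apart from Ly6c1.

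**Figure D3:**
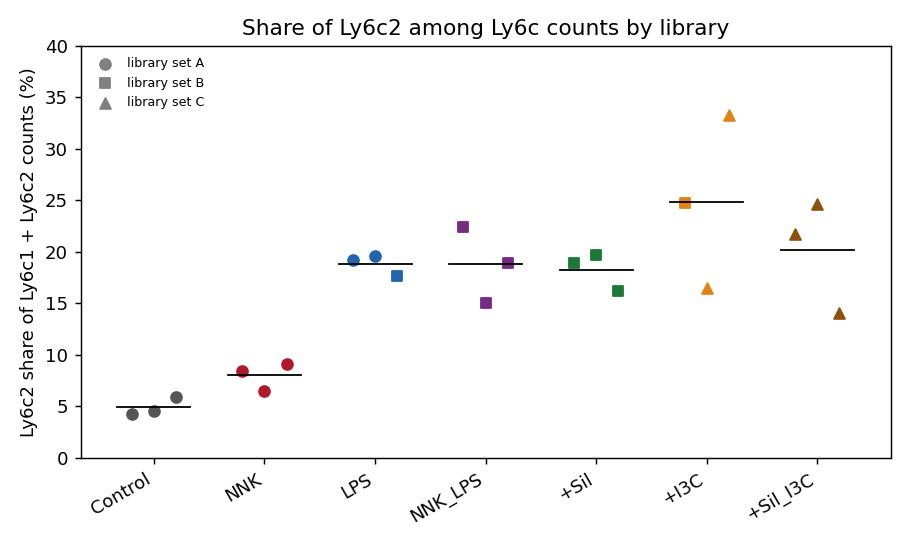
Ly6c2 as a percentage of Ly6c1 plus Ly6c2 counts in 21 libraries, from 0, with bars for group means (n = 3) and symbols for the library set. Control and NNK lie below 10% and every library given LPS lies at 14.1% or above.

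The diets were each compared with NNK_LPS, and no member was called for any of them. For NNK_LPS_Sil no gene at all was called (0% of those tested), by edgeR or by DESeq2, and 578 genes had an unadjusted p under 0.05 in edgeR, none of them a member. For NNK_LPS_I3C 2.02% and for NNK_LPS_Sil_I3C 1.36% of all genes were called, shares that moved widely with single libraries. Every member overlapped NNK_LPS in every diet group, but the share of all genes that did so was not counted. Of 10 alveolar type 2 markers, 5 were lower in NNK_LPS_I3C and 3 in NNK_LPS_Sil_I3C. Their sum was 52932 to 72403 CPM in NNK_LPS, 39602 to 40326 CPM in NNK_LPS_I3C and 38483 to 40333 CPM in NNK_LPS_Sil_I3C. Heart muscle markers were higher for 7 of 7 in NNK_LPS_I3C (82.1 to 152 against 356 to 510 CPM). The part of these in the Ly6 values was not tested.

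With silibinin, the 95% intervals of the log2 difference were -0.47 to 0.37 for Ly6a, -0.50 to 0.18 for Ly6e, -0.44 to 0.24 for Ly6c1 and -0.50 to 0.22 for Ly6c2. With indole-3-carbinol they were -0.43 to 0.41, -0.50 to 0.18, -0.51 to 0.17 and -0.08 to 0.64 in the same order of genes. These intervals leave out a change of the size LPS gave in normal lung for Ly6a, Ly6e and Ly6c2. In tumours, NNK_LPS differed from NNK by 0.10 for Ly6a and 0.12 for Ly6e, sizes that lie within these intervals. For Ly6c2 that difference was 1.41, which lies outside them. For Ly6i and Ly6d they were wider, at -2.32 to 2.86 and -0.87 to 1.29 with silibinin and -2.15 to 2.85 and -0.98 to 1.18 with indole-3-carbinol.

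With both compounds, Ly6a read 346, 590.1 and 478 CPM, and its log2 difference was 0.50 (95% interval 0.08 to 0.92, edgeR adjusted p = 0.227, n = 3 per group). Ly6e read 468, 646 and 489.8 CPM, with a difference of 0.24 (-0.10 to 0.58). Ly6c1 differed by 0.06 (-0.28 to 0.40) and Ly6c2 by 0.17 (-0.19 to 0.53). NNK_LPS_Sil_I3C 2 was the highest of its group for Ly6a, Ly6e, Ly6c2, Ly6i and Ly6d.

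Ly6i showed this most, with 68, 701 and 22 counts in NNK_LPS_Sil_I3C, or 2.60, 32.0 and 0.952 CPM. The log2 difference from NNK_LPS was 2.49 ± 1.10 (n = 3 per group, edgeR adjusted p = 0.273), and leaving out 1 library gave -0.23 to 3.27. Library 2 also led its group in summed interferon-gamma response genes (3235 CPM against 1823 and 1879 CPM) and type I genes (1215 CPM against 625 and 802 CPM). Its summed monocyte markers were the lowest of the group (1507 CPM against 1634 and 1782 CPM), and its neutrophil markers were the highest (172 CPM against 79.9 and 142 CPM). Most of the monocyte sum was Fn1 and Chi3l3, at 684 ± 207 and 525 ± 122 CPM in this group (SD, n = 3). Library 2 was also the highest for T cell (291 CPM against 142 and 234.5 CPM), plasma cell (2369 CPM against 1278 and 1732 CPM) and B cell markers (249.7 CPM against 118 and 223 CPM). The part of these in its Ly6 values was not tested.

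**Figure D4:**
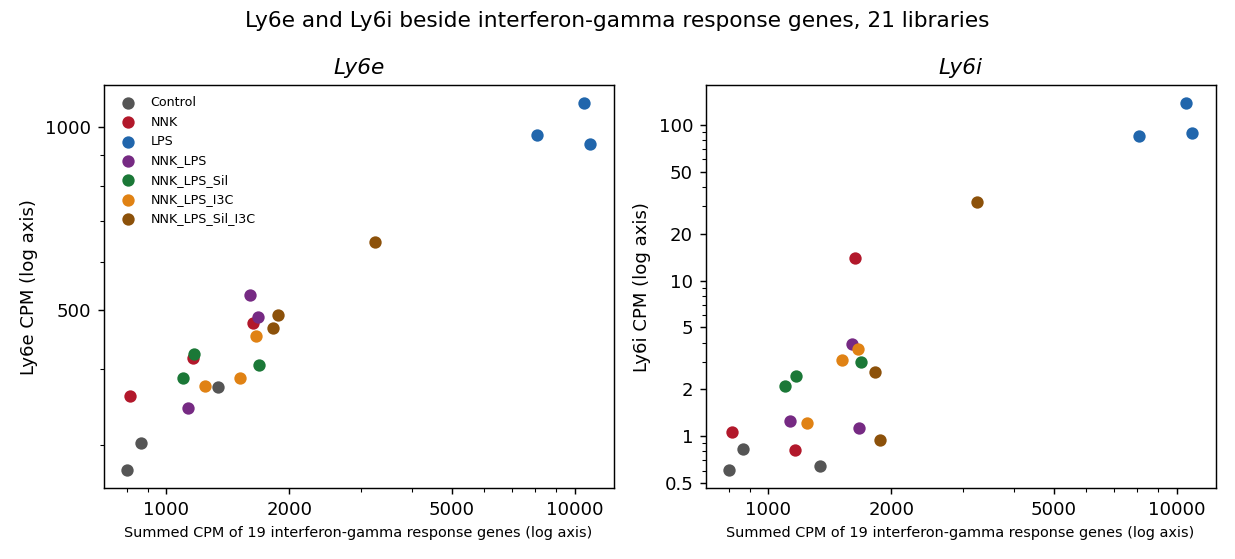
Ly6e and Ly6i CPM in 21 libraries against the summed CPM of 19 interferon-gamma response genes, both on log axes, with 1 point per library coloured by group. The 3 LPS libraries lie at 8059 CPM or above, and NNK_LPS_Sil_I3C 2 lies at 3235 CPM, between them and the rest.

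Taking all 7 groups, the order of mean levels had few steps larger than the spread within groups. For Ly6a it ran from LPS (1487 ± 299.9 CPM, SD, n = 3) through NNK_LPS_Sil_I3C (471 ± 122), Control (431 ± 19.0), NNK_LPS (333 ± 74.4), NNK_LPS_I3C (331 ± 50.2) and NNK_LPS_Sil (322 ± 32.7) to NNK (311 ± 59.8). Neighbours overlapped except below LPS and, narrowly, below Control, whose lowest library was 410.05 CPM against 408.65 CPM for the highest of NNK_LPS. For Ly6e the order was LPS (1001 ± 82.8 CPM), NNK_LPS_Sil_I3C (534 ± 97.3), NNK_LPS (454 ± 96.2), NNK (417 ± 57.4), the silibinin and indole-3-carbinol groups (405 ± 18.8 and 405 ± 41.8) and Control (316 ± 51.5). Only LPS and Control were separated from their neighbours, Control narrowly (at most 372.6 CPM against at least 375.3 CPM with indole-3-carbinol). Control also overlapped NNK and NNK_LPS, which have higher means.

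For Ly6c1 LPS (502 ± 29.5 CPM) was separated from Control (349 ± 27.3), and below it NNK_LPS_Sil_I3C (306 ± 52.9), NNK (295 ± 34.6), NNK_LPS (295 ± 38.4), NNK_LPS_Sil (274 ± 7.66) and NNK_LPS_I3C (261 ± 72.8) overlapped in turn. Ly6c2 fell into 4 levels. LPS (116 ± 2.05 CPM) lay above NNK_LPS_I3C (82.4 ± 16.2), NNK_LPS_Sil_I3C (76.0 ± 17.8), NNK_LPS (67.6 ± 11.1) and NNK_LPS_Sil (61.3 ± 6.43), which overlapped in turn. NNK (25.4 ± 2.39) lay below these and above Control (17.9 ± 2.81). Every group given LPS thus had more Ly6c2 than either group without it, tumour or lung.

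For Ly6i LPS (103 ± 29.6 CPM) was far above NNK_LPS_Sil_I3C (11.8 ± 17.5) and NNK (5.30 ± 7.54), whose means rest on 1 library each. NNK_LPS_I3C (2.66 ± 1.28), NNK_LPS_Sil (2.51 ± 0.451) and NNK_LPS (2.10 ± 1.57) followed, all above every Control library (0.694 ± 0.119). For Ly6d, from LPS (5.48 ± 1.12 CPM) through NNK_LPS_Sil (5.21 ± 4.12), NNK_LPS_I3C (4.81 ± 2.47), NNK_LPS (4.50 ± 2.26), NNK_LPS_Sil_I3C (3.47 ± 1.49) and Control (2.51 ± 1.19) to NNK (2.29 ± 0.532), every neighbour overlapped. Markers of stratified epithelium, a known site of Ly6d, were sparse, at 2.85 to 26.0 CPM summed over 10 genes, with Dsg3 at 0 in Control, LPS and NNK_LPS.

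Members differed in which genes ran most closely with them over the 21 libraries, which share groups and library sets, so the correlations of log2 CPM are given as a description. The closest to Ly6a was Ifitm3 (Pearson r = 0.987), an interferon-induced membrane protein that blocks virus entry. For Ly6e they included Iigp1 (0.979), Igtp (0.977), Irgm1 (0.975) and Zbp1 (0.974), all known interferon-response genes. Ly6c2 ran with Ccl8 (0.961), a monocyte-attracting chemokine, and H2-Aa (0.956), a class II antigen-presenting chain. Ly6c1 ran with Cflar (0.955), an inhibitor of caspase-8, Ly6i with Il4i1 (0.963), an amino acid oxidase of myeloid cells, and Ly6d less closely with Fgl1 (0.844).

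Among the members, Ly6e and Ly6i were the closest pair (r = 0.916), followed by Ly6a and Ly6c1 (0.855) and by Ly6a and Ly6e (0.852). Ly6c1 and Ly6c2, the pair most alike in sequence, had r = 0.0988. Ly6d was not closely followed by any member, with r from -0.114 to 0.667.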

How the data were processed

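The authors deposited whole-number counts per gene symbol for 21 libraries, with mm10 as the genome build per the submitters' processing notes. RNA was prepared with the Illumina TruSeq RNA kit, per the labels' protocols. The aligner, counter, annotation and strandedness were not given in the sources used here. Of 38924 symbols, 16756 had 0 counts in every library. The counts were fitted in R 4.3.3 with edgeR 4.0.16 (quasi-likelihood, robust, TMM scaling, filterByExpr with a minimum count of 10, 7 groups, 14 residual degrees of freedom). Benjamini-Hochberg adjustment covered all 15770 genes in each of 8 comparisons, and genes were called at 0.05. Standard errors are the log2 fold change over the square root of F. Correlations used log2 CPM with a prior count of 2, and for each member the 5 most correlated named genes were found, leaving out uncharacterised models and antigen receptor segments. Named besides these were called genes of the wider family, some cell type markers and, from the interferon lists, genes among the 4 with the highest mean CPM. On simulated data for LPS against Control over the 15770 genes, 73 of 100 genes changed by 1 on the log2 scale and 87 of 100 changed by 2 were recovered, with 8 false calls. Alternatives were other size factors, no filter, DESeq2 1.42.0, the compared groups alone, a replicate block, a term for or restriction to library sets, the Ly6c pair summed, and leaving out each library. The members, lists and comparisons were chosen with earlier results of these data known. Besides the motifs and correlated genes given, a further motif and a further correlated gene are not reported here. Sequences were compared with Biopython 1.88.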

Additional observations from a re-analysis of the deposited data

Results flagged for a closer look

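A test of the difference itself set apart the LPS difference in tumours (NNK_LPS minus NNK) from that in normal lung (LPS minus Control) for 4 members. The log2 value was -1.69 for Ly6a, -1.54 for Ly6e, -1.29 for Ly6c2 and -8.55 for Ly6i. The NNK and NNK_LPS libraries also come from different library sets. With a term for the set the 4 values were -1.98, -1.67, -1.27 and -8.96. Between sets A and B that term rests on LPS, where LPS 3 alone is of set B. With 3 libraries in a group, single libraries were not tested as outliers in the edgeR fit.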

How the results depend on the processing

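Of 15 called member results, 217 of 220 alternatives kept the call and direction, 3 lost the call and none reversed. The 3 were Ly6c2 in NNK_LPS against NNK with the set term and without NNK 2, and Ly6c2 in NNK_LPS against LPS within set B. The count of members called for NNK_LPS against NNK was 0 with the set term, 0 with the Ly6c pair summed, where Ly6c2 has no row of its own, and 0 to 1 with 1 library left out. For NNK against Control it was 1 with the compared groups only, 3 within 1 set, 1 by DESeq2 and 0 to 2 with 1 library left out, against 0 as reported. Over the whole table, the first 3 of these fits called 2314, 2821 and 2648 genes, against 2064 as reported. Of 33 uncalled results, 10 of 446 alternatives made a call, none in the other direction. Besides those given in the report, Ly6c2 in NNK against Control was called with the compared groups only (adjusted p = 0.0314) and by DESeq2 (0.0308), and Ly6c1 in the interaction with the compared groups only (-0.54, adjusted p = 0.0228). The cause was not tested. DESeq2 gave Ly6i a log2 value but no p in any of the 8 comparisons, so those are not counted. Its default settings leave out the p of a gene with a count flagged as outlying.

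Replicate numbers here are the order of libraries within a group and differ from the labels' own numbers in the groups given NNK. A check on them therefore cannot show whether libraries were paired. Deviations of same-numbered libraries correlated at -0.358 to 0.463, over 0.1 in 17 of 63 pairs, and 11 of 21 libraries correlated best with their own number. With the replicate block no member count changed (5, 0, 5, 1, 4, 0, 0 and 0), and the genes called for NNK_LPS against NNK went from 15 to 37.

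Genes called over the whole table moved more. For NNK_LPS against NNK they were 492 by DESeq2 and 0 with the set term. For NNK_LPS_I3C the 318 became 1042 by DESeq2, 60 with the set term, 5 with the compared groups only and 0 within set B. For NNK_LPS_Sil_I3C the 214 became 672, 2 and 13 by the first 3 of these, and for NNK_LPS against LPS the 6024 became 1836 within set B. With 1 library left out, the 318 for NNK_LPS_I3C ran from 21 (without NNK_LPS 2) to 794 (without NNK_LPS 1), being 35 and 40 without NNK_LPS_I3C 3 and 1, and 498 without NNK_LPS 3. The 214 for NNK_LPS_Sil_I3C ran from 30 (without NNK_LPS 2) to 816 (without NNK_LPS 3), being 142 without NNK_LPS 1 and 107, 66 and 77 without NNK_LPS_Sil_I3C 1, 2 and 3. Depth limits Ly6i in Control (8 to 13 counts) and Ly6d throughout (18 to 195 counts).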
